A study of Homo sapiens with 24 samples.

Results

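The comparison set OCUG-1 cells given 10 µM sorafenib for 72 h against OCUG-1 cells given 1.25 µM for the same time. It rests on 6 libraries, 3 per dose, of the 24 in the series, and was read across all genes, with attention to genes whose response to dose was not monotonic. OCUG-1 is a human gallbladder cancer line grown in DMEM, so the results speak for 1 cell line. Sorafenib is an oral inhibitor of several kinases, among them the RAF kinases and receptor tyrosine kinases of blood vessels. The 3 OCUG-1 vehicle libraries (DMSO, at most 0.1%, 72 h) served to place each dose on a scale of vehicle, 1.25 µM and 10 µM. HuCCT1, an intrahepatic cholangiocarcinoma line grown in RPMI-1640 and treated alike with 10 µM or 1.25 µM for 72 h (3 libraries each), served to test whether the dose effect differed between lines. The remaining OCUG-1 libraries (1.25 µM sorafenib with 1 µM IACS-010759, a mitochondrial complex I inhibitor, 72 h, n = 3) entered the fit for its estimate of spread. The replicates were labelled as independent biological replicates of each condition.

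Cells that accumulate unfolded proteins respond in each compartment. In the cytosol, heat shock factor 1 switches on chaperones of the HSP70, HSP90 and small heat shock families. In the endoplasmic reticulum (ER), the sensors IRE1, ATF6 and PERK raise ER chaperones and degradation factors, and PERK shares with other kinases a common output, the integrated stress response, in which the factor ATF4 drives genes for amino acid transport and synthesis. Sterol and fatty acid synthesis are controlled separately, by the SREBP factors, which are released when membranes run low in sterol. In the MAPK pathway, RAF kinases signal through MEK and ERK to genes such as the DUSP, SPRY and ETV families, and ATP-competitive RAF inhibitors can raise that output in cells without a BRAF mutation.

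The total count was 17982911 to 24019011 in the 10 µM libraries, 14388855 to 22823918 in the 1.25 µM libraries and 16295146 to 16788347 in vehicle. Replicates differed by more than counting error (chi-square over its degrees of freedom, 5.76 to 26.7 in the 12 pairs of OCUG-1 replicates), and none looked like a library deposited more than once. Counts from the mitochondrial genome made up 5.65% to 6.25% of the 10 µM libraries and 9.39% to 13.1% of the 1.25 µM libraries, and the 50 most abundant genes took 13.7% to 14.8% at 10 µM and 19.3% to 22.8% at 1.25 µM. These shares differed between the doses along with the genes below; their part in the results was not tested. Of 14 biliary epithelial markers 11 reached 10 CPM (counts per 1000000 counts of the library, scaled by trimmed mean of M values), and none of 10 immune or 10 endothelial markers did. The summed biliary markers were 2508 to 3866 CPM at 10 µM and 10100 to 10350 CPM at 1.25 µM, with KRT8 the highest marker. Summed fibroblast markers were 79.0 to 122 CPM at 10 µM and 219 to 239 CPM at 1.25 µM, with COL1A1 the highest. Hepatocyte markers summed to 11.3 to 13.4 CPM at 10 µM and 39.0 to 40.4 CPM at 1.25 µM, with APOB at 0. Most of the sum at 1.25 µM was FGB, with a mean of 32.8 CPM and the only 1 to reach 10 CPM. By the test described below, of 6 hepatocyte markers tested 3 were lower at 10 µM and 1, ALB, was higher. Immune markers summed to 9.86 to 13.3 CPM at 10 µM and 9.67 to 12.1 CPM at 1.25 µM, with MS4A1 at 0, and endothelial markers to 4.20 to 4.84 CPM at 10 µM and 7.99 to 11.2 CPM at 1.25 µM. In bulk RNA of a culture, fewer cells that express a gene and less of its RNA per cell cannot be told apart.

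The dose comparison reached most expressed genes. Of 20511 genes tested, 12414 passed edgeR's quasi-likelihood test (60.5%; adjusted p under 0.05 by Benjamini-Hochberg, here named called): 6472 were higher at 10 µM (31.6%) and 5942 were lower (29%). At least 2-fold, 3528 were higher and 2768 lower. The median over all tested genes was a log2 fold change (10 µM over 1.25 µM) of 0.03, so the rises and falls below stand against a centre near 0. The 3 libraries of one dose lay wholly above or below the 3 of the other for 13251 tested genes and for 11848 of the called ones. Leaving out any 1 of the 6 libraries gave 11376 to 12179 called genes. At the lower dose the same line had moved far less: 1.25 µM against vehicle called 2160 genes (10.5%; 5.92% higher and 4.61% lower), and 10 µM against vehicle called 63.1% (32.4% higher and 30.7% lower). Since most genes changed between the doses, the call of a single gene or a small list is no rare event, and each list below is read against 31.6% higher and 29% lower.

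**Figure D1:**
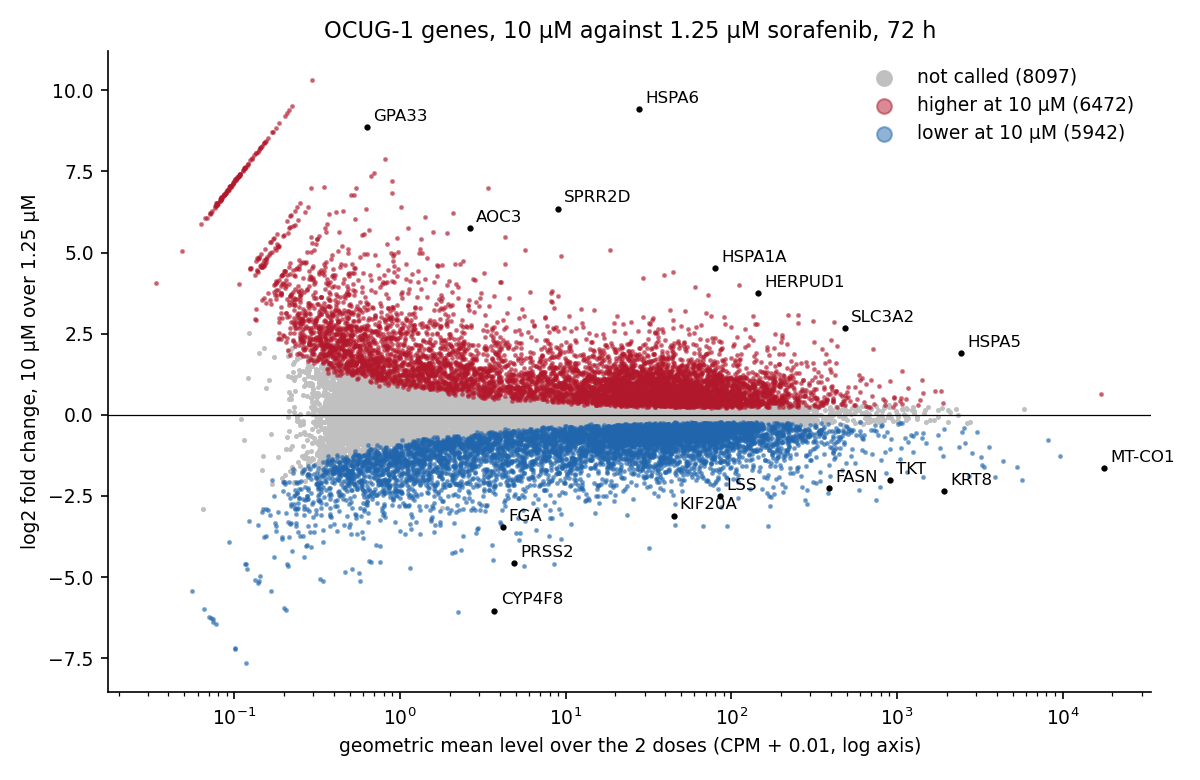
Each point is 1 of 20511 tested genes, with its geometric mean level over the doses (CPM + 0.01, log axis) and its log2 fold change (10 µM over 1.25 µM). Red points were called higher at 10 µM (6472), blue lower (5942), grey not called, and black points carry names. HSPA6 stands apart at the top among genes of moderate level; the oblique streaks at the left are genes with almost no reads at 1.25 µM, whose fitted change depends on the fitting prior.

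The largest rise among protein-coding genes that reached 10 CPM was in HSPA6, the strictly stress-inducible member of the HSP70 chaperone family. HSPA6 had 716, 392 and 1039.9 CPM in the 10 µM libraries, against 1.12, 0.794 and 1.31 CPM in the 1.25 µM libraries (log2 fold change 9.42 ± 0.55 (SE), adjusted p = 1.11e-07). It was all but silent at the lower dose, as in vehicle (2.78, 1.69 and 1.43 CPM), and among the abundant genes at the higher dose. CRYAB, alpha-B crystallin, a small heat shock protein, had 8.78, 10.6 and 14 CPM at 10 µM and 0.264, 0.234 and 0.145 CPM at 1.25 µM (log2 fold change 5.62 ± 0.37 (SE), adjusted p = 7.48e-10). Another 8 genes completed the 10 largest rises, and they came from unrelated families.

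Some of these encode proteins of the epithelial surface. SPRR2D, a small proline-rich protein of the cornified envelope of squamous epithelium, had 74.1, 112 and 58.9 CPM at 10 µM and 1.06, 1.07 and 0.799 CPM at 1.25 µM (log2 fold change 6.36 ± 0.33 (SE), adjusted p = 1.08e-09). SPRR2D has close paralogs, so its reads may be shared with them. MUC13, a transmembrane mucin, had 23.4, 27.6 and 35.7 CPM at 10 µM and 0.198, 0.747 and 0.944 CPM at 1.25 µM (log2 fold change 5.49 ± 0.36 (SE), adjusted p = 5.16e-09). GPA33, a cell surface antigen of intestinal epithelium, had 14.7, 3.79 and 18.8 CPM at 10 µM and 0.066, 0 and 0 CPM at 1.25 µM (adjusted p = 4.42e-05). Its fitted change rests on 1 read at 1.25 µM and is no measure of size.

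The others were of mixed function. AOC3, an amine oxidase also known as vascular adhesion protein, had 19.7, 20.1 and 18.7 CPM at 10 µM and 0.33, 0.42 and 0.291 CPM at 1.25 µM (log2 fold change 5.75 ± 0.26 (SE), adjusted p = 1.33e-11). THBD, which encodes the anticoagulant receptor thrombomodulin, had 31.9, 42.4 and 23.8 CPM at 10 µM and 0.792, 0.887 and 1.24 CPM at 1.25 µM (log2 fold change 5.09 ± 0.24 (SE), adjusted p = 1.73e-11). SLC2A9, a urate transporter, had 9.63, 17.2 and 7.48 CPM at 10 µM and 0.066, 0.14 and 0.291 CPM at 1.25 µM (log2 fold change 6.11 ± 0.57 (SE), adjusted p = 2.41e-07). NHLH1, a basic helix-loop-helix transcription factor of developing neurons, rose by 6.21 ± 0.55 and the zinc finger gene ZNF280A by 5.09 ± 0.24 on the log2 scale. In each of the 10 genes the 10 µM libraries lay above all 1.25 µM libraries, a condition of the rule that named them.

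**Figure D2:**
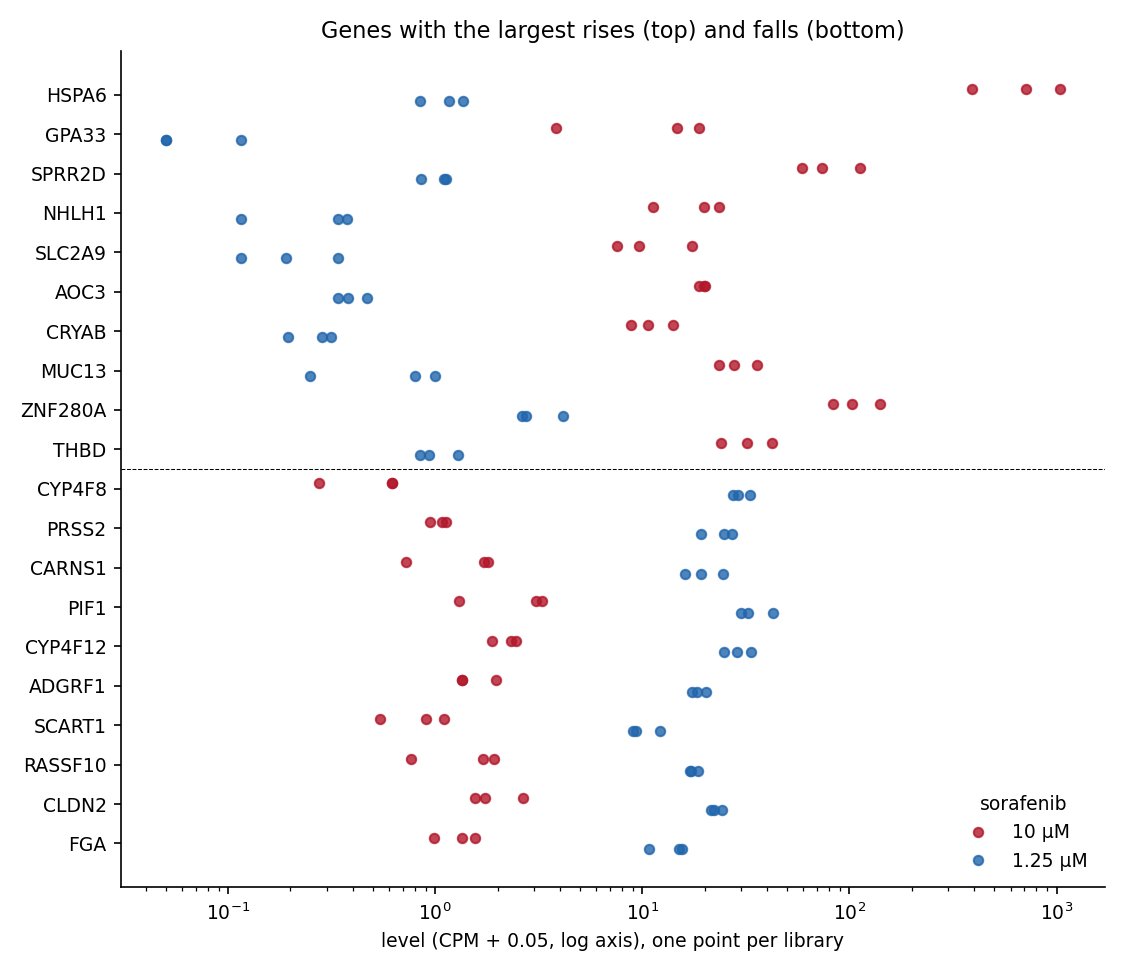
Level of the 10 genes with the largest rises (above the dashed line) and the 10 with the largest falls (below it) in each library (CPM + 0.05, log axis), with 10 µM sorafenib in red and 1.25 µM in blue, 3 points per dose. The doses do not overlap in any of the 20 genes; HSPA6 has the highest 10 µM values and GPA33 the lowest 1.25 µM values among the rises.

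The largest falls included enzymes of lipid and drug oxidation and secreted proteins. CYP4F8, a cytochrome P450 that hydroxylates prostaglandins and fatty acids, had 0.569, 0.223 and 0.566 CPM at 10 µM and 33.2, 28.9 and 27.5 CPM at 1.25 µM (log2 fold change -6.03 ± 0.24 (SE), adjusted p = 1.88e-12). Its neighbour in the family, CYP4F12, had 2.4, 1.83 and 2.27 CPM at 10 µM and 33.2, 28.5 and 24.7 CPM at 1.25 µM (log2 fold change -3.73 ± 0.17 (SE), adjusted p = 1.46e-11). Both genes have close paralogs, and reads may be divided among them. In vehicle they stood higher still, at 92.8, 76.6 and 72.2 CPM for CYP4F8 and 50.7, 40.2 and 41.9 CPM for CYP4F12, so both fell at each step of dose.

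PRSS2, which encodes a pancreatic trypsinogen, had 0.894, 1.03 and 1.08 CPM at 10 µM and 27.1, 24.7 and 19.2 CPM at 1.25 µM (log2 fold change -4.57 ± 0.25 (SE), adjusted p = 7.88e-11), with the caveat that trypsinogen genes are near-identical. FGA, the fibrinogen alpha chain, had 1.5, 0.937 and 1.3 CPM at 10 µM and 10.8, 15.5 and 15 CPM at 1.25 µM (log2 fold change -3.46 ± 0.20 (SE), adjusted p = 1.84e-10). CLDN2, a claudin that forms cation pores in tight junctions, had 1.5, 1.7 and 2.61 CPM at 10 µM and 24.1, 22 and 21.4 CPM at 1.25 µM (log2 fold change -3.56 ± 0.19 (SE), adjusted p = 5.35e-11). PIF1, a DNA helicase, had a log2 fold change of -3.82 ± 0.23, CARNS1, which makes carnosine, -3.87 ± 0.25, and ADGRF1, an adhesion G protein-coupled receptor, -3.65 ± 0.20. The scavenger receptor family gene SCART1 had -3.65 ± 0.24 and RASSF10, a Ras-association domain gene, -3.63 ± 0.29. PRSS2, RASSF10 and CLDN2 recur below, because they had first risen at the lower dose.

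Cytosolic chaperones rose almost as a body. Of 18 tested members of the heat shock list, 17 were higher and 1 lower at 10 µM, with a median log2 fold change of 1.48, against 31.6%, 29% and 0.03 over all tested genes. BAG3, a co-chaperone of HSP70, had 805, 746 and 985 CPM at 10 µM and 110.1, 111 and 121 CPM at 1.25 µM (log2 fold change 2.89 ± 0.13 (SE), adjusted p = 1.46e-11). HSPH1, an HSP110 nucleotide exchange factor, had 1071, 1040.4 and 1268 CPM at 10 µM and 133, 162 and 173 CPM at 1.25 µM (log2 fold change 2.85 ± 0.15 (SE), adjusted p = 5.21e-11). CHORDC1, an HSP90 co-chaperone, had 139.9, 144 and 134 CPM at 10 µM and 39.6, 36.6 and 36.4 CPM at 1.25 µM (log2 fold change 1.89 ± 0.10 (SE), adjusted p = 8.6e-11). The doses did not overlap in any of these.

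HSPA1A and HSPA1B, the inducible HSP70 genes, showed the larger changes of the list after CRYAB. HSPA1A had 322, 256 and 568 CPM at 10 µM and 17.1, 17.5 and 14.8 CPM at 1.25 µM (log2 fold change 4.53 ± 0.25 (SE), adjusted p = 1.73e-09). HSPA1B had 652, 549.8 and 998 CPM at 10 µM and 75.6, 92.9 and 91.2 CPM at 1.25 µM (log2 fold change 3.08 ± 0.20 (SE), adjusted p = 3.43e-09). They encode the same protein and their reads can hardly be separated, so the pair is best read as 1 signal. The member that fell, named after its value was seen, was HSPE1, the mitochondrial co-chaperonin (-0.85 ± 0.13), while its partner HSPD1, the mitochondrial chaperonin, rose (1.03 ± 0.12). HSPE1 overlaps the readthrough gene HSPE1-MOB4 on the same strand, and how such reads were assigned is not given in the sources used here.

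The promoters of HSPA6, HSPA1A and CHORDC1 are shown because they carry letters of the heat shock element, the binding motif of heat shock factor 1. HSPA6 is not in the heat shock list and is not among the list promoters counted below. Promoter windows were taken from RefSeq (GRCh38.p14), from 250 bases before to 50 bases after the start, printed 5′ to 3′ along the gene, with motif matches in capitals. The core GAANNTTC, searched on both strands, was found in 6 of 17 list promoters and in 6.87% of all 27305 windows. The longer element, that core followed by any 2 bases and GAA, was found in 3 of 17 (CHORDC1, HSPA8 and DNAJA1) and in 0.487% of all. HSPA6 is at chr1:161524290-161524589 (plus strand) and HSPA1A at chr6:31815293-31815592 (plus strand), both marked with the core. CHORDC1 is at chr11:90223000-90223299 (minus strand), marked with the longer motif, which overlaps itself there.
HSPA6: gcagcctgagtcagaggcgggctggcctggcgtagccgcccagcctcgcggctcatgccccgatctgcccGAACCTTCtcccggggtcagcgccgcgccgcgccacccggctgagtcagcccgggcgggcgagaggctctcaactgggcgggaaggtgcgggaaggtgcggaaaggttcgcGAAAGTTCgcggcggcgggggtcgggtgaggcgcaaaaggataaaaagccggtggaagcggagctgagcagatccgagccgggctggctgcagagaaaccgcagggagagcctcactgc
HSPA1A: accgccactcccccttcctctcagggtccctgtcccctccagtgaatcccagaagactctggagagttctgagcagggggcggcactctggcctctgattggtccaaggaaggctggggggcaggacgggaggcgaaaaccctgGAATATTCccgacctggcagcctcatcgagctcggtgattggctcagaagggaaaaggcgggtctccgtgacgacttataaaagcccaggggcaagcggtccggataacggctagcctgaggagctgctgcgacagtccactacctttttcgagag
CHORDC1: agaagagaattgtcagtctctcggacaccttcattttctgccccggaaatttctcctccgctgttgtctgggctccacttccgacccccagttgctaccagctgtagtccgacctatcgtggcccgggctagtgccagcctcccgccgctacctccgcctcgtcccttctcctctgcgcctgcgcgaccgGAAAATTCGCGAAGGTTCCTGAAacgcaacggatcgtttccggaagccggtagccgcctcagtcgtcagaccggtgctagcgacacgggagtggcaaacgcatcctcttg
A match is a description of letters, not evidence that a factor bound there.

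Genes of the ER unfolded protein response rose alongside. Of 25 tested members 22 were higher and 0 lower, with a median of 1.01. HSPA5, the main ER chaperone BiP, had 3988, 5301 and 4860.3 CPM at 10 µM and 1150.4, 1253 and 1365 CPM at 1.25 µM (log2 fold change 1.91 ± 0.16 (SE), adjusted p = 8.98e-09). Vehicle stood lower still, at 644, 764 and 755 CPM (1.25 µM over vehicle 0.80 ± 0.15, adjusted p = 0.00344). HERPUD1, a membrane protein of ER-associated degradation, had 433, 603 and 547 CPM at 10 µM and 35.9, 39.7 and 42.9 CPM at 1.25 µM (log2 fold change 3.74 ± 0.19 (SE), adjusted p = 9.75e-11), with vehicle at 35.4, 46.7 and 45.4 CPM. For HERPUD1 the whole change thus lay between 1.25 and 10 µM.

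DNAJB9, an ER co-chaperone induced by IRE1 and chosen after its value was seen, had the largest change of the list (3.94 ± 0.29). XBP1, the factor that IRE1 activates by splicing, had 286, 351 and 370.2 CPM at 10 µM and 68, 84.3 and 86.1 CPM at 1.25 µM (log2 fold change 2.08 ± 0.15 (SE), adjusted p = 3.08e-09). DNAJC3, an inhibitor of the PERK pathway, rose by 2.29 ± 0.16 and DNAJB11, a BiP co-chaperone, by 1.60 ± 0.12. The members not called were CALR, CANX and ATF6 (0.09 ± 0.11, 0.25 ± 0.12 and 0.02 ± 0.16). At 1.25 µM against vehicle 8 of the 25 were higher and 1 lower.

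The HSPA5 and XBP1 promoters carry the ER stress response element (CCAAT, any 9 bases, then CCACG), searched on both strands and found in 6 of 22 list promoters and 0.0806% of all windows. The 6 were HSPA5, XBP1, HSP90B1, CRELD2, CALR and CANX, of which the last pair was not called. HSPA5 is at chr9:125241294-125241593 (minus strand) and XBP1 at chr22:28800520-28800819 (minus strand), with the element in capitals.
HSPA5: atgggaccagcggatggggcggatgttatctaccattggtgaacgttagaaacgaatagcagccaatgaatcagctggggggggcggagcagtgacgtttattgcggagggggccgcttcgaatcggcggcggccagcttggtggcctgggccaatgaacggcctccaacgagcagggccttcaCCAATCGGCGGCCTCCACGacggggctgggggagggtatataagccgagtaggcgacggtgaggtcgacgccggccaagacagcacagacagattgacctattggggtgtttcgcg
XBP1: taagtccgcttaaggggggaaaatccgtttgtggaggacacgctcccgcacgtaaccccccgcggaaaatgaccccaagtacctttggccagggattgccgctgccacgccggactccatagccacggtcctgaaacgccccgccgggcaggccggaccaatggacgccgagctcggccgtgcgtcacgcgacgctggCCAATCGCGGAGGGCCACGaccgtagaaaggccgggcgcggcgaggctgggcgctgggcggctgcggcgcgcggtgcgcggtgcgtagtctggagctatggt
HSP90B1, the ER form of HSP90, and CRELD2, an ER chaperone, were called higher (0.74 ± 0.13 and 1.32 ± 0.12), both chosen for the motif and not by rank.

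The integrated stress response list, 48 genes, had 42 members higher and 1 lower, with a median of 1.00. DDIT3, which encodes the stress factor CHOP, had 126, 162 and 151 CPM at 10 µM and 33.9, 29.9 and 23.1 CPM at 1.25 µM (log2 fold change 2.33 ± 0.14 (SE), adjusted p = 1.97e-10). SESN2, a leucine-sensing inhibitor of mTORC1, had 80.1, 84.9 and 82.8 CPM at 10 µM and 16.1, 13.5 and 13.8 CPM at 1.25 µM (log2 fold change 2.51 ± 0.13 (SE), adjusted p = 3.36e-11). TRIB3, a pseudokinase induced by ATF4 and CHOP, had 275, 363 and 261 CPM at 10 µM and 92.6, 97 and 107 CPM at 1.25 µM (log2 fold change 1.60 ± 0.12 (SE), adjusted p = 4.8e-09). DDIT3 overlaps exons of other genes on both strands, so part of its reads may be theirs.

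Transport and synthesis of amino acids formed a large part of the same list. SLC3A2, the heavy chain of several amino acid exchangers, had 1082, 1353 and 1232 CPM at 10 µM and 195, 191 and 192 CPM at 1.25 µM (log2 fold change 2.67 ± 0.12 (SE), adjusted p = 7.58e-12). Its partner SLC7A5, the leucine transporter, had 342, 384 and 386 CPM at 10 µM and 89.8, 87.2 and 88.9 CPM at 1.25 µM (log2 fold change 2.06 ± 0.10 (SE), adjusted p = 2.62e-11). Among all 16 tested amino acid transporters 12 were higher and 3 lower (median 1.01), a list that shares 8 genes with the stress response list. ASNS, asparagine synthetase, had 5.77, 4.02 and 5.38 CPM at 10 µM and 0.792, 1.4 and 1.96 CPM at 1.25 µM (log2 fold change 1.87 ± 0.29 (SE), adjusted p = 1.86e-05). It overlaps another gene on its strand, and reads may be shared. The hormone gene STC2, stanniocalcin, rose by 1.88 ± 0.11, and CHAC1, which degrades glutathione, by 1.77 ± 0.13.

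ATF3, a stress factor of the same list, rose little (0.44 ± 0.16, adjusted p = 0.0252), and its call was lost without 10 µM replicate 1 (0.43, adjusted p = 0.0622), 10 µM replicate 3 (0.24, adjusted p = 0.191) or 1.25 µM replicate 2 (0.29, adjusted p = 0.147). GDF15, a secreted stress hormone, had 322, 362 and 338 CPM at 10 µM and 385, 371 and 368 CPM at 1.25 µM and was not called (-0.14 ± 0.12, adjusted p = 0.338). The member that fell was DDIT4, an mTORC1 inhibitor (-0.53 ± 0.21), named after its value was seen. At 1.25 µM against vehicle 7 of the 48 were higher and 1 lower.

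Promoters of SLC3A2 and CHAC1 are shown for the ATF4 composite element TGATGNAA (both strands), found in 12 of 41 list promoters and in 3.67% of all windows. SLC3A2 is at chr11:62881449-62881748 (plus strand) and CHAC1 at chr15:40953221-40953520 (plus strand), with the match in capitals.
SLC3A2: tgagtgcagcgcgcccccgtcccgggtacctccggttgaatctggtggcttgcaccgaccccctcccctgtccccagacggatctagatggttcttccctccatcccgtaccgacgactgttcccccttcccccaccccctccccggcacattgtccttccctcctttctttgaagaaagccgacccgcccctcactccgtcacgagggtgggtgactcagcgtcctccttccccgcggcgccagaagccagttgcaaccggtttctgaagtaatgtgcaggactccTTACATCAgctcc
CHAC1: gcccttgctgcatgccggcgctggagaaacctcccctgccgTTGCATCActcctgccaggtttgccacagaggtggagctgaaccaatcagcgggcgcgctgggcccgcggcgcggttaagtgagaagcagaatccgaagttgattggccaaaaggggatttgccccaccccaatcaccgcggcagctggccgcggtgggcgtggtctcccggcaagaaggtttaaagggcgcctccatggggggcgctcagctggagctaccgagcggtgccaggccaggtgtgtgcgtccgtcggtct
In both genes the match reads on the opposite strand of the gene.

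**Figure D3:**
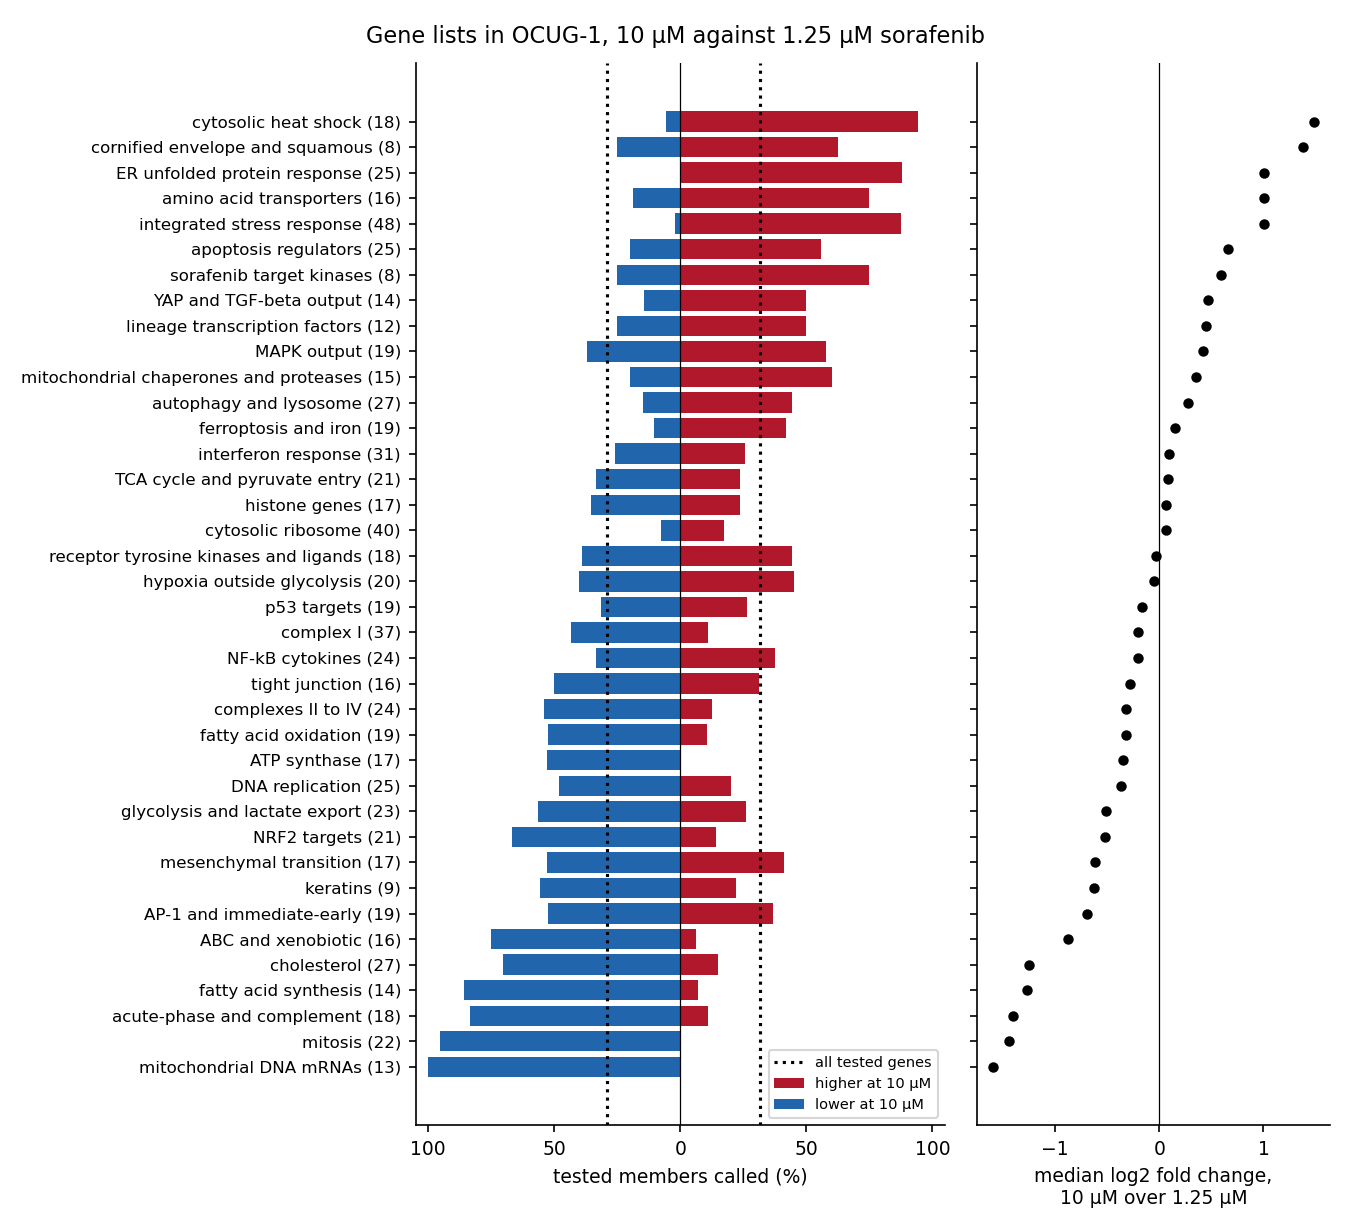
Share of tested members called higher (red, to the right) or lower (blue, to the left) at 10 µM, and the median log2 fold change (10 µM over 1.25 µM), for 38 gene lists, with the number tested in parentheses. Dotted lines mark all tested genes, 31.6% higher and 29% lower. Heat shock genes lie at the top, with the cornified envelope, ER, amino acid transport and integrated stress response lists next, and mitochondrial DNA mRNAs and mitosis genes at the bottom.

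Genes of cell division were lower at 10 µM. Of 22 tested mitosis genes 0 were higher and 21 lower, with a median of -1.44. KIF20A, a kinesin of cytokinesis, had 16.9, 11.3 and 17.6 CPM at 10 µM and 152, 129 and 113 CPM at 1.25 µM (log2 fold change -3.11 ± 0.16 (SE), adjusted p = 3.59e-11). TOP2A, the mitotic topoisomerase, had 137, 104 and 143 CPM at 10 µM and 668, 646 and 605 CPM at 1.25 µM (log2 fold change -2.32 ± 0.12 (SE), adjusted p = 5.19e-11). CENPF, a kinetochore protein, had 106, 85.5 and 97.4 CPM at 10 µM and 425, 425 and 415 CPM at 1.25 µM (log2 fold change -2.13 ± 0.10 (SE), adjusted p = 1.88e-11), and CENPE, a kinetochore motor, fell by 2.06 on the log2 scale. The proliferation marker MKI67 had 77.8, 71 and 77.6 CPM at 10 µM and 219.7, 195 and 181 CPM at 1.25 µM (log2 fold change -1.40 ± 0.10 (SE), adjusted p = 2.26e-09). At 1.25 µM against vehicle only KIF20A and CENPE of the mitosis list were called, both lower.

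DNA replication genes were mixed, with 5 of 25 higher and 12 lower (median -0.37). The licensing factor CDC6 had 264, 320.0 and 284 CPM at 10 µM and 135, 112 and 106 CPM at 1.25 µM (adjusted p = 6.37e-08), and CCNE2, cyclin E2, rose by 1.82 ± 0.22. The helicase subunit MCM5 had 77.9, 60.7 and 65.9 CPM at 10 µM and 131, 127 and 130.0 CPM at 1.25 µM (log2 fold change -0.92 ± 0.10 (SE), adjusted p = 2.96e-07). Cyclin D1, CCND1, rose slightly (0.32 ± 0.11, adjusted p = 0.0141), a call lost without 10 µM replicate 1 (0.29, adjusted p = 0.0513), without 1.25 µM replicate 1 (0.23, adjusted p = 0.0893) and without a filter on low counts (adjusted p = 0.0531). Of 19 p53 targets 5 were higher and 6 lower, with GADD45A, a growth arrest gene, at 2.25 ± 0.13, the cell cycle inhibitor CDKN1A at 1.20 ± 0.14 and TP53INP1, a p53-induced nuclear protein, at -1.55 ± 0.15.

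The CENPF and TOP2A promoters carry the letters of the cell cycle genes homology region, TTTGAA, searched on both strands and found in 13 of 19 mitosis list promoters and 15.4% of all windows. CENPF is at chr1:214602945-214603244 (plus strand) and TOP2A at chr17:40417847-40418146 (minus strand), with matches in capitals.
CENPF: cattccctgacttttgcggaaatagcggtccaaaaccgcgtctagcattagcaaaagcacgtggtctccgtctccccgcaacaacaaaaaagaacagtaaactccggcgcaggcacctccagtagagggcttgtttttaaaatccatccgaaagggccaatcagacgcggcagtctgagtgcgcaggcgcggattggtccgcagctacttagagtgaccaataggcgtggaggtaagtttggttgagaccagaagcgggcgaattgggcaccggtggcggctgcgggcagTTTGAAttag
TOP2A: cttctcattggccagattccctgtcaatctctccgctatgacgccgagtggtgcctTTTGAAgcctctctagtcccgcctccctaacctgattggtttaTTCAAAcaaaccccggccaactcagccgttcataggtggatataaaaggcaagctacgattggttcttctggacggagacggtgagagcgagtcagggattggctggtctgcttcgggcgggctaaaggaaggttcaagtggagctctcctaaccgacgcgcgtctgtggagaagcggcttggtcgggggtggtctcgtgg
At 6 letters this motif is common, as its share of all windows shows.

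Lipid synthesis fell too, and in part from a level that the lower dose had raised. Of 27 cholesterol genes 4 were higher and 19 lower (median -1.25), and of 14 tested fatty acid synthesis genes 1 was higher and 12 lower (median -1.27). LSS, lanosterol synthase, had 36.6, 30.0 and 40.2 CPM at 10 µM and 205, 206 and 200.5 CPM at 1.25 µM (log2 fold change -2.52 ± 0.12 (SE), adjusted p = 1.73e-11). The transcription factors fell themselves: SREBF2, the sterol regulator, had 82.3, 71 and 89.7 CPM at 10 µM and 273, 270.4 and 256 CPM at 1.25 µM (log2 fold change -1.72 ± 0.10 (SE), adjusted p = 2.84e-10). SREBF1, the lipogenic regulator, had 77, 50.4 and 84.7 CPM at 10 µM and 438, 402 and 369.8 CPM at 1.25 µM (log2 fold change -2.51 ± 0.16 (SE), adjusted p = 4.01e-10). FASN, fatty acid synthase, followed with 194, 137 and 203 CPM at 10 µM and 922, 843 and 783 CPM at 1.25 µM (log2 fold change -2.25 ± 0.15 (SE), adjusted p = 8.92e-10).

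At 1.25 µM against vehicle, 10 of the cholesterol genes were higher and 0 lower, so 8 of them formed peaks at the lower dose, as did 3 fatty acid genes (ELOVL6, ACLY and SCD). FDPS, farnesyl diphosphate synthase, had 115, 110.4 and 109.5 CPM in vehicle, 151, 161 and 163 CPM at 1.25 µM and 59.4, 44.9 and 67.3 CPM at 10 µM. The elongase ELOVL6 had 119, 138 and 122 CPM in vehicle, 166, 187 and 189 CPM at 1.25 µM and 51.3, 46 and 46.1 CPM at 10 µM. Among the exceptions at the higher dose, named after their values were seen, were CYP51A1, a sterol demethylase (1.52 ± 0.43), MYLIP, a ubiquitin ligase of sterol control (1.42 ± 0.15), and PMVK, a kinase of the mevalonate pathway (0.32 ± 0.13). CYP51A1 overlaps other genes on both strands. HMGCS1, HMG-CoA synthase, was not called (-0.38 ± 0.17, adjusted p = 0.069).

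The mRNAs of the mitochondrial genome fell together. All 13 were lower at 10 µM, with a median of -1.60. At 1.25 µM against vehicle their median was -0.11. MT-CO2, a cytochrome oxidase subunit, had 3129, 2525 and 2823 CPM at 10 µM and 12956, 11378 and 9917 CPM at 1.25 µM (log2 fold change -2.01 ± 0.15 (SE), adjusted p = 2.26e-09). MT-CYB, cytochrome b, had 2104, 1912 and 1968 CPM at 10 µM and 9565, 7023 and 6156 CPM at 1.25 µM (log2 fold change -1.93 ± 0.15 (SE), adjusted p = 7.49e-09). These mRNAs come from shared transcripts, so they are not 13 separate observations.

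Nuclear genes of the respiratory chain had medians nearer 0. Of 37 complex I genes 4 were higher and 16 lower (median -0.20), of 24 genes in complexes II to IV 3 and 13 (-0.32), and of 17 ATP synthase genes 0 and 9 (-0.35). At 1.25 µM these lists had 16, 14 and 4 genes above vehicle and 0 below, where 5.92% of all tested genes were higher. The cytosolic ribosome list shared this, with 16 of 40 above vehicle and 0 below. COX7A2, a cytochrome oxidase subunit, had 71.4, 91.3 and 79.1 CPM in vehicle, 148, 145 and 156 CPM at 1.25 µM and 84.5, 99.5 and 106 CPM at 10 µM. ATP5MC1, a ring subunit of ATP synthase, had 98.3, 103 and 98.3 CPM in vehicle, 166, 145 and 137 CPM at 1.25 µM and 98, 98.8 and 96.7 CPM at 10 µM. Both came back at 10 µM to a level not called different from vehicle (0.26 ± 0.11 and -0.03 ± 0.09, adjusted p = 0.0521 and 0.778). NDUFS8, an iron-sulfur subunit of complex I, fell by 0.99 on the log2 scale at 10 µM against 1.25 µM.

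In the list of mitochondrial chaperones and proteases 9 of 15 were higher and 3 lower; HSPE1, in this list as well as the heat shock one, is among the 3. HSPA9, the mitochondrial HSP70, had 872, 964 and 852 CPM at 10 µM and 365, 381 and 406 CPM at 1.25 µM (log2 fold change 1.22 ± 0.10 (SE), adjusted p = 9.96e-09), and its exchange factor GRPEL1 rose by 1.59 ± 0.11. DELE1, which relays mitochondrial stress to the integrated stress response, fell (-0.75 ± 0.10), as did the protease OMA1 that cleaves it (-0.93 ± 0.13, chosen after its value was seen). Of 21 genes of the TCA cycle and pyruvate entry 5 were higher and 7 lower, with pyruvate carboxylase PC at -1.33 ± 0.15 and PDHB, a pyruvate dehydrogenase subunit, at -1.19 ± 0.10. Of 19 tested fatty acid oxidation genes 2 were higher and 10 lower; PDK4, which inhibits pyruvate dehydrogenase, rose by 1.85 ± 0.20 and the mitochondrial enzyme ECH1 fell by 1.40 on the log2 scale.

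Glycolysis genes leaned lower, with 6 of 23 higher and 13 lower (median -0.51). SLC16A3, the lactate exporter MCT4, had 89.4, 75.5 and 90.3 CPM at 10 µM and 243, 273 and 269 CPM at 1.25 µM (log2 fold change -1.62 ± 0.11 (SE), adjusted p = 1.28e-09). ENO2, an enolase, had 57.3, 54.2 and 55.3 CPM at 10 µM and 206, 169 and 139.8 CPM at 1.25 µM (log2 fold change -1.63 ± 0.13 (SE), adjusted p = 6.48e-09). HK2, hexokinase 2, ran opposite, with 116, 163 and 102 CPM at 10 µM and 58.4, 55 and 51.2 CPM at 1.25 µM (log2 fold change 1.21 ± 0.14 (SE), adjusted p = 4.95e-07). At 1.25 µM 7 glycolysis genes had been above vehicle and 2 below.

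Hypoxia response genes outside glycolysis split, with 9 of 20 higher and 8 lower, and their median (-0.05) changed sign when libraries were scaled by total count alone. ANGPTL4, a secreted inhibitor of lipoprotein lipase, climbed at both steps, with 4.07, 3.79 and 3.34 CPM in vehicle, 26.5, 18.7 and 21.1 CPM at 1.25 µM and 139, 163 and 110.5 CPM at 10 µM (1.25 µM over vehicle 2.56 ± 0.18, 10 µM over 1.25 µM 2.64 ± 0.15). CA9, carbonic anhydrase IX, peaked instead: 2.78, 2.53 and 4.29 CPM in vehicle, 10.9, 7.71 and 8.14 CPM at 1.25 µM and 0.163, 0.625 and 0.623 CPM at 10 µM (10 µM over 1.25 µM -4.27 ± 0.37). NDRG1, a stress-responsive gene, rose by 2.21 ± 0.14 and the carbonic anhydrase CA12 fell by 1.36 on the log2 scale.

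The abundant epithelial keratins were lower. KRT8 had 909, 701 and 949.8 CPM at 10 µM and 5028, 4262 and 3832 CPM at 1.25 µM (log2 fold change -2.36 ± 0.14 (SE), adjusted p = 1.6e-10), and its filament partner KRT18 had 296, 248 and 249.7 CPM at 10 µM and 1538, 1280.4 and 1169.5 CPM at 1.25 µM (log2 fold change -2.33 ± 0.13 (SE), adjusted p = 1.18e-10). KRT19, a marker of bile duct epithelium, had 168, 142 and 190.2 CPM at 10 µM and 968, 862 and 845 CPM at 1.25 µM (log2 fold change -2.42 ± 0.12 (SE), adjusted p = 3.36e-11). KRT80, another epithelial keratin, ran opposite (1.39 ± 0.17), and of 9 tested keratins 2 were higher and 5 lower. Of 16 tight junction genes 5 were higher and 8 lower, and of 17 tested genes of the mesenchymal transition list 7 and 9. In that list FN1, fibronectin, had 1304, 1216 and 1727 CPM at 10 µM and 4928, 5314 and 5321 CPM at 1.25 µM (log2 fold change -1.87 ± 0.15 (SE), adjusted p = 8.81e-09), while the repressors SNAI2 (1.59 ± 0.16) and ZEB1 (1.09 ± 0.12) rose, as did SNAI1 (4.20 ± 0.42, chosen after its value was seen).

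Most of the secreted acute-phase and complement genes fell. Of 18 tested members 2 were higher and 15 lower (median -1.41), after 8 had fallen and 1 had risen at 1.25 µM against vehicle. FGB, the fibrinogen beta chain, had 100.3, 130.2 and 117 CPM in vehicle, 33, 33.7 and 31.6 CPM at 1.25 µM and 5.16, 4.78 and 5.83 CPM at 10 µM. The complement regulator CFI had a log2 fold change between the doses of -2.37 ± 0.16. The members that rose, named after their values were seen, were complement C2 (1.06 ± 0.37) and CD55 (1.35 ± 0.11), which protects cells from complement.

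Detoxification genes fell likewise. Of 21 NRF2 target genes 3 were higher and 14 lower (median -0.52), and of 16 tested transporters and enzymes of drug metabolism 1 and 12 (median -0.87); the lists share ABCC2 and ABCC3. AKR1C2, an aldo-keto reductase whose reads may be shared with near-identical paralogs, had 349, 231 and 328 CPM at 10 µM and 2205, 1812 and 1536 CPM at 1.25 µM (log2 fold change -2.61 ± 0.16 (SE), adjusted p = 3.22e-10). TKT, transketolase of the pentose phosphate pathway, had 460.5, 326 and 562 CPM at 10 µM and 1896, 1840.5 and 1726 CPM at 1.25 µM (log2 fold change -2.02 ± 0.15 (SE), adjusted p = 3.74e-09). The export pump ABCC2 had 105, 69 and 106 CPM at 10 µM and 417, 362 and 336 CPM at 1.25 µM (log2 fold change -1.99 ± 0.16 (SE), adjusted p = 8.1e-09). UGT1A1, a glucuronosyltransferase that shares exons with its family, had -3.37 ± 0.30, and OSGIN1, an oxidative stress gene, rose instead (2.19 ± 0.14).

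Output of the MAPK pathway was higher at 10 µM for 11 of 19 tested genes and lower for 7 (median 0.42). The direct feedback genes did not share 1 course. ETV5, an ETS factor, had 13.6, 13.8 and 15.4 CPM in vehicle, 39.6, 42.8 and 49.8 CPM at 1.25 µM and 72.3, 76.5 and 76.3 CPM at 10 µM, a rise at each step (10 µM over 1.25 µM 0.77 ± 0.10, adjusted p = 4.95e-06). Its relative ETV4 had 15.3, 13.7 and 14.9 CPM in vehicle, 40.8, 35.5 and 35.5 CPM at 1.25 µM and 28.4, 26.1 and 33.5 CPM at 10 µM. ETV4 was thus lower at 10 µM than at 1.25 µM (-0.35 ± 0.11, adjusted p = 0.0127), a call lost when scaled by total count alone (-0.23, adjusted p = 0.0824) or without 1.25 µM replicate 1 (-0.29, adjusted p = 0.0563), but above vehicle (1.00 ± 0.12).

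DUSP6, the ERK phosphatase, peaked, with 197, 123 and 154 CPM in vehicle, 333, 247 and 237 CPM at 1.25 µM and 169, 156 and 128 CPM at 10 µM. Between the doses its log2 fold change was -0.85 ± 0.18, and 10 µM was not called against vehicle (-0.06 ± 0.17, adjusted p = 0.768). FOSL1, an AP-1 subunit, rose between the doses, with 342, 443 and 328 CPM at 10 µM and 119, 95.2 and 90.5 CPM at 1.25 µM (log2 fold change 1.87 ± 0.14 (SE), adjusted p = 2.4e-09), as did the feedback inhibitors SPRY2 (1.32 ± 0.14) and SPRY4 (1.46 ± 0.17). Over the AP-1 and immediate-early list 7 of 19 were higher and 10 lower, with JUND at -1.90 ± 0.12 and JUNB at -1.86 ± 0.19 against KLF6, a zinc finger factor, at 1.00 ± 0.09.

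Growth factor and cytokine genes diverged within their lists. HBEGF, an EGF receptor ligand, had 173, 119 and 231 CPM at 10 µM and 5.94, 10.4 and 10.1 CPM at 1.25 µM (log2 fold change 4.30 ± 0.28 (SE), adjusted p = 2.55e-08). The receptor genes ERBB3, of the EGF receptor family (-1.83 ± 0.16), INSR, of insulin (-1.58 ± 0.17), and FGFR4, of fibroblast growth factors (-1.22 ± 0.14), fell, and over 18 tested receptors and ligands 8 were higher and 7 lower. Of the kinases that sorafenib targets, 8 of 15 passed the filter on low counts, and all 8 were called, 6 higher and 2 lower. ARAF, a kinase of the RAF family, fell (-0.64 ± 0.10). The VEGF receptor genes KDR, FLT1 and FLT4 did not pass the filter in this line.

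Of 24 tested NF-kB cytokine genes 9 were higher and 8 lower, with the inhibitor TNFAIP3 at 1.83 ± 0.11, the chemokine CXCL3 at 2.34 ± 0.18 and TNFAIP2, another TNF-induced gene, at -2.08 ± 0.15. Interferon response genes were also even, at 8 higher and 8 lower of 31. ISG20, an exonuclease, had 21.3, 34.1 and 18.9 CPM at 10 µM and 3.5, 4.3 and 3.78 CPM at 1.25 µM (log2 fold change 2.67 ± 0.23 (SE), adjusted p = 1.94e-08), and the antiviral gene RSAD2 rose by 3.05 ± 0.36, with under 1 CPM on average at 1.25 µM. YAP target ANKRD1 had 509, 383 and 272 CPM at 10 µM and 50.9, 42.9 and 46.5 CPM at 1.25 µM (log2 fold change 3.05 ± 0.19 (SE), adjusted p = 1.93e-09), and the list of YAP and TGF-beta output had 7 of 14 higher and 2 lower.

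Apoptosis regulators leaned higher, with 14 of 25 higher and 5 lower (median 0.66). PMAIP1, the BH3-only protein NOXA, had 478, 436 and 470.2 CPM at 10 µM and 78.5, 95.3 and 92.5 CPM at 1.25 µM (log2 fold change 2.38 ± 0.12 (SE), adjusted p = 3.36e-11). The caspase inhibitor XIAP also rose (0.87 ± 0.09). Among 27 autophagy and lysosome genes 12 were higher and 4 lower, with MAP1LC3B, the LC3B gene, at 1.55 ± 0.11 and the kinase ULK1 at -1.02 ± 0.12. PTGS2, cyclooxygenase 2, had 72.2, 85.7 and 95.5 CPM at 10 µM and 10.7, 10.8 and 14.1 CPM at 1.25 µM (log2 fold change 2.84 ± 0.21 (SE), adjusted p = 1.97e-08), in a ferroptosis and iron list with 8 of 19 higher and 2 lower.

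The remaining lists moved little or unevenly between the doses. Of 40 cytosolic ribosomal genes 7 were higher and 3 lower, 25.0% called against 60.5% of all tested genes. At 10 µM against vehicle 31 of the 40 were higher and 0 lower. The lineage transcription factors had 6 of 12 tested members higher and 3 lower, with SOX9, a bile duct factor, at 1.02 ± 0.12 and GATA6, an endodermal factor, at -1.05 ± 0.12. Histone genes had 4 of 17 higher and 6 lower, in libraries selected for poly(A) tails, which most histone mRNAs lack. The cornified envelope list had 5 of 8 tested members higher and 2 lower, and 1 of its genes, SPRR2D, reached 10 CPM.

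Base composition moved with the direction of change, and its part in the results was not tested. The values here cover protein-coding genes only, each by its longest transcript. Median GC content was 46.5% for the 4717 called higher, 52.2% for the 4488 called lower and 48.5% for all 13970 tested. Median transcript lengths were 3730 bases for the protein-coding genes called higher, 3597 for those called lower and 3628 for all protein-coding genes tested.

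Of the 20511 tested genes, 699 were not monotonic in dose, called in opposite directions at the step from vehicle to 1.25 µM and the step from 1.25 to 10 µM. Peaks, higher at 1.25 µM than at either end, numbered 414 (2.02%), and dips, lower at 1.25 µM, 285 (1.39%). Both steps use the same 1.25 µM libraries with opposite sign, so a chance deviation there makes both look changed. The 1.25 µM libraries lay above all vehicle and 10 µM libraries for 382 of the peaks and below them for 268 of the dips. These genes were selected by calls on the same libraries, so such separation is largely built in and is no support. The share of all tested genes with it was not counted. At 10 µM, 151 of the peak genes were below vehicle, 241 not called against it and 22 above. Of the dip genes 7 were below vehicle, 165 not called and 113 above. Among protein-coding genes, the median transcript length was 2889 bases for the 394 peaks and 4617 for the 203 dips, against 3628 for all tested. The part of transcript length in these patterns was not tested.

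These counts rest on few libraries. Without 1.25 µM replicate 2 there were 130 peaks and 62 dips, without 1.25 µM replicate 3 267 and 145, without vehicle replicate 1 192 and 102, and without vehicle replicate 3 147 and 86. Of the 414 peaks 92, and of the 285 dips 40, were called whichever 1 of the 9 libraries was left out. Scaled by total count alone, the numbers were 198 peaks and 583 dips, so the split between the kinds depends on scaling. By contrast 385 genes rose at both steps and 375 fell at both, while 5802 and 5153 rose or fell at the second step and were not called at the first.

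The 8 peaks of largest size were PRSS2, RASSF10, PADI1, GJA1, IL4I1, COL13A1, CCL2 and CLDN2. PRSS2 had 5.43, 3.55 and 6.2 CPM in vehicle, 27.1, 24.7 and 19.2 CPM at 1.25 µM and 0.894, 1.03 and 1.08 CPM at 10 µM, and CLDN2 had 12.5, 10.8 and 10.0 CPM in vehicle, 24.1, 22 and 21.4 CPM at 1.25 µM and 1.5, 1.7 and 2.61 CPM at 10 µM. Both ended below vehicle (-2.34 ± 0.26 and -2.54 ± 0.19). IL4I1, a secreted amino acid oxidase, had 23.3, 19.9 and 20.2 CPM in vehicle, 57.4, 41.8 and 41.8 CPM at 1.25 µM and 8.61, 6.65 and 10.3 CPM at 10 µM, also ending below vehicle. GJA1, the gap junction protein connexin 43, had 142, 251 and 204 CPM in vehicle, 348, 458 and 536 CPM at 1.25 µM and 216, 143 and 218 CPM at 10 µM and came back to the level of vehicle (-0.05 ± 0.21, adjusted p = 0.856).

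RASSF10 and PADI1, a peptidylarginine deiminase, ended below vehicle (-2.16 ± 0.30 and -0.87 ± 0.24). COL13A1, a transmembrane collagen, had -0.41 ± 0.18 against vehicle (adjusted p = 0.0607). CCL2, a monocyte-attracting chemokine, was the least stable, with 123, 119 and 139.9 CPM in vehicle, 302, 286 and 272 CPM at 1.25 µM and 149, 70.6 and 199.7 CPM at 10 µM. Its peak was called in 2 of the 9 fits that left out a library, while the other 7 peaks were called in all 9.

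The 8 dips of largest size were SLC25A34, IL6R, EIF4A1, HSPA1B, HSPA1A, CPEB2, KCP and TXNIP. IL6R, the interleukin 6 receptor, had 33, 29.9 and 32.2 CPM in vehicle, 13.5, 14 and 16.3 CPM at 1.25 µM and 28, 33.1 and 32.9 CPM at 10 µM, back at the level of vehicle (-0.02 ± 0.11, adjusted p = 0.897). SLC25A34, a mitochondrial carrier, had 12, 9.15 and 10.1 CPM in vehicle, 4.88, 3.97 and 3.63 CPM at 1.25 µM and 10.6, 15.6 and 10.9 CPM at 10 µM. CPEB2, which regulates translation through the poly(A) tail, had 25.4, 26.6 and 28.2 CPM in vehicle, 10.8, 17.9 and 15.1 CPM at 1.25 µM and 30.2, 26.6 and 28.9 CPM at 10 µM. All 3 returned to a level not called against vehicle.

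The HSP70 pair combined a dip with the large rise described above. HSPA1B had 163, 168 and 170.1 CPM in vehicle, 75.6, 92.9 and 91.2 CPM at 1.25 µM and 652, 549.8 and 998 CPM at 10 µM, and HSPA1A had 28.8, 32.5 and 29.6 CPM in vehicle (1.25 µM over vehicle -0.88 ± 0.23, adjusted p = 0.0271). TXNIP, an inhibitor of thioredoxin and glucose uptake, had 45.7, 66.1 and 41.3 CPM in vehicle, 17.7, 23.6 and 17.9 CPM at 1.25 µM and 37, 24 and 45.5 CPM at 10 µM. At 10 µM it was not called against vehicle (-0.53 ± 0.22, adjusted p = 0.0532). KCP, a secreted BMP modulator, fell by 0.85 and then rose by 1.15 ± 0.18, and EIF4A1, an RNA helicase of translation initiation, rose by 1.10 ± 0.23 after a fall. EIF4A1 overlaps a readthrough gene and small RNA genes on its strand, and KCP overlaps ATP6V1F. Both may therefore hold reads of others or lack part of their own. Without 1 library the dips of HSPA1A, KCP and EIF4A1 were called in 3, 8 and 8 of 9 fits, and those of the other 5 in all 9.

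**Figure D4:**
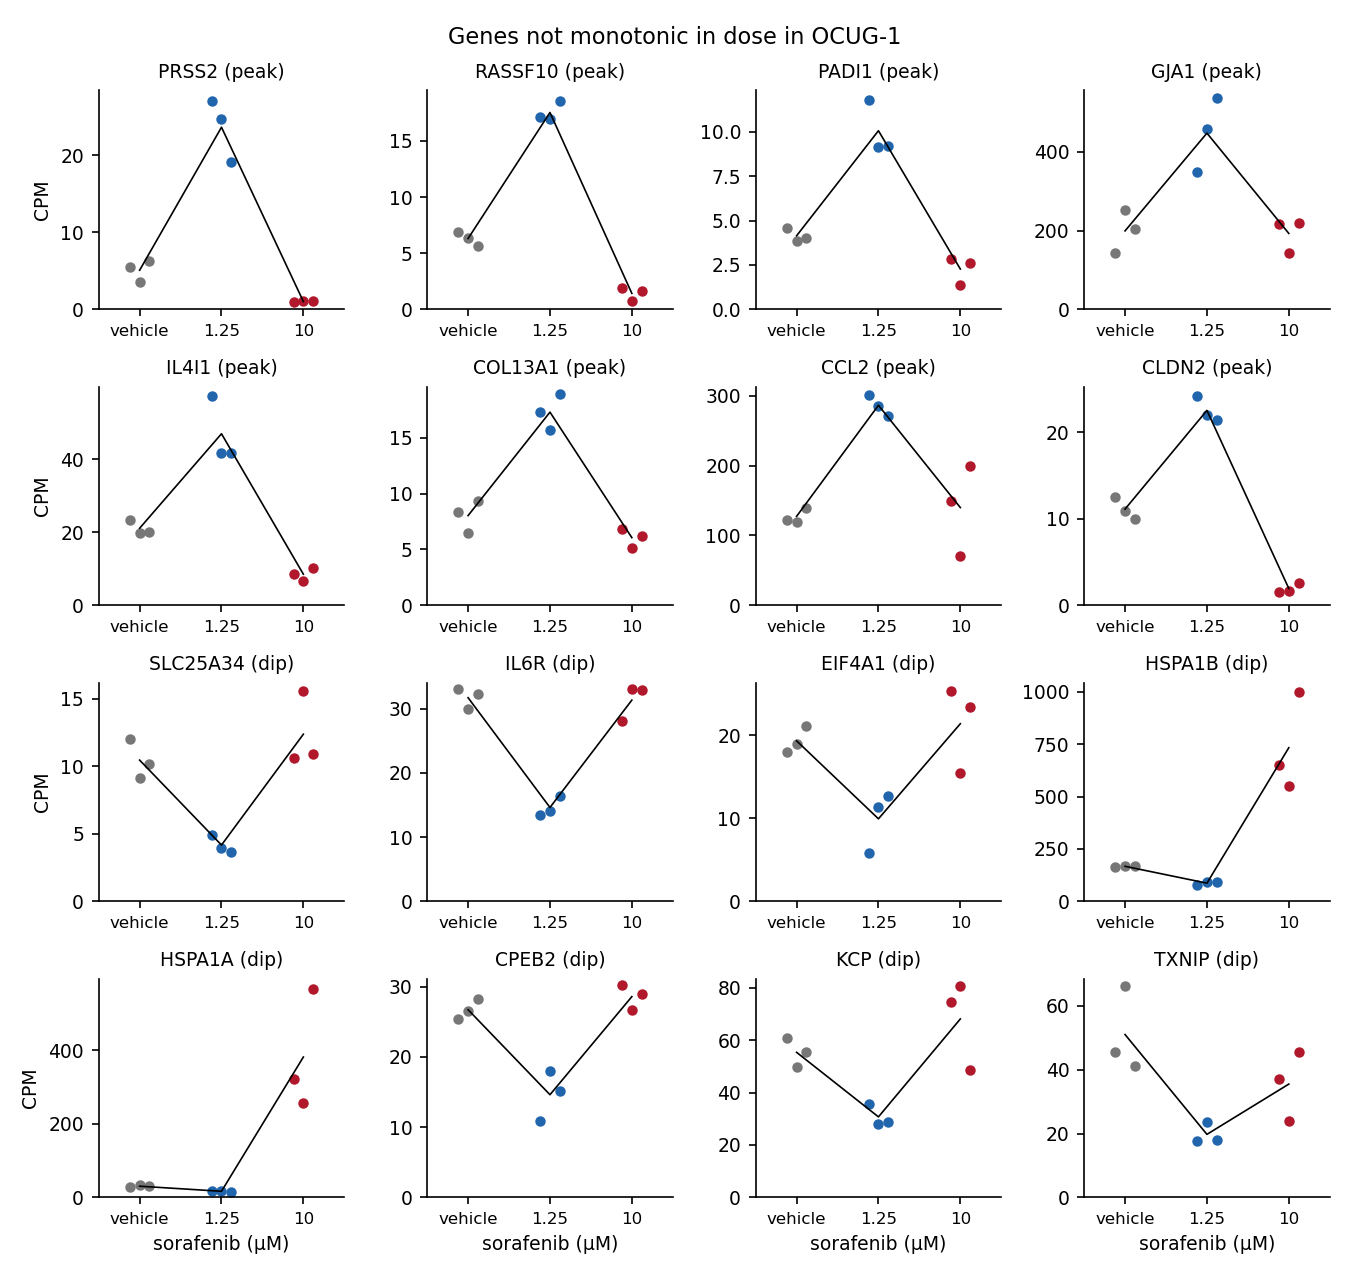
Level (CPM, linear axis from 0) of the 8 largest peaks and 8 largest dips in each OCUG-1 library at vehicle, 1.25 µM and 10 µM sorafenib, with a line through the 3 means. The 1.25 µM points form the top of the upper 8 panels and the bottom of the lower 8; HSPA1A and HSPA1B end far above vehicle at 10 µM.

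By list, peaks made up 8 of 37 complex I genes, 9 of 24 in complexes II to IV, 8 of 27 cholesterol genes, 6 of 23 glycolysis genes, 4 of 20 hypoxia genes and 4 of 19 MAPK output genes, where peaks were 2.02% of all tested genes. In the stress lists 0 of 18 heat shock, 0 of 25 ER and 0 of 48 integrated stress response genes peaked. At a share of 2.02%, lists of this size would hold few or none. Dips numbered 2, 1 and 1 in these lists, where dips were 1.39% of all tested genes. SLC7A11, the cystine transporter, was the dip of the last list, with 62.3, 78.5 and 83.3 CPM in vehicle, 39.7, 48.1 and 52.4 CPM at 1.25 µM and 116, 128 and 113 CPM at 10 µM. No test of these shares was made, and peaks of single respiratory chain genes were small (COX7A2 0.89 ± 0.11 then -0.63 ± 0.11).

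The dose effect was then set against that of HuCCT1 in 1 fit of 24 libraries. In HuCCT1 5520 of 22944 tested genes were called between 10 µM and 1.25 µM (24.1%). The effect itself differed between lines for 9244 genes (40.3%), with 4271 higher in OCUG-1 (18.6%) and 4973 lower (21.7%). Cell line and medium differ together, so they cannot be told apart here.

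The dose effect on stress genes differed between the lines. Among heat shock genes it was higher in OCUG-1 for 16 of 18 and lower for 0, with medians of 1.48 in OCUG-1 and -0.19 in HuCCT1. HSPA6 in HuCCT1 had 0.677, 0.67 and 1.02 CPM at 10 µM and 1.07, 0.844 and 0.78 CPM at 1.25 µM, with no called change (-0.20 ± 0.64, adjusted p = 0.876), and the difference between lines was 9.52 ± 0.92 on the log2 scale (adjusted p = 1.34e-07). The ER list had 13 of 25 higher in OCUG-1 and 0 lower, and the integrated stress response list 25 of 48 and 0. For SLC3A2 the difference was 2.68 ± 0.19 and for HERPUD1 2.36 ± 0.52, although HERPUD1 was called higher in HuCCT1 as well (1.28 ± 0.36, adjusted p = 0.0156). HERPUD1 in HuCCT1 had 93.8, 63.5 and 279 CPM at 10 µM and 54.6, 60.3 and 63.7 CPM at 1.25 µM. That rise thus lay largely in replicate 3, and the doses overlapped.

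For mitosis and lipid genes the difference ran the other way. The dose effect was lower in OCUG-1 for 21 of 22 mitosis genes, with medians of -1.44 in OCUG-1 and 0.12 in HuCCT1, and for 20 of 27 cholesterol genes, with medians of -1.25 in OCUG-1 and 0.02 in HuCCT1. KIF20A differed by -2.75 ± 0.40 (adjusted p = 2.15e-05) and LSS by -2.19 ± 0.23 (adjusted p = 1.45e-08). The dose effect on interferon genes was higher in OCUG-1 for 22 of 31 and lower for 1, with medians of 0.10 in OCUG-1 and -1.38 in HuCCT1. The fall of mitochondrial DNA mRNAs was present in both lines, with medians of -1.60 in OCUG-1 and -1.09 in HuCCT1, and 3 of 13 differed.

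Single genes with the largest line differences followed. LRP1B, a large lipoprotein receptor, had 3.54, 2.28 and 4.19 CPM at 10 µM and 29.8, 37.5 and 35.7 CPM at 1.25 µM in OCUG-1 (-3.38 ± 0.18), and 1.66, 1.8 and 4.6 CPM at 10 µM and 0.603, 1.27 and 1.08 CPM at 1.25 µM in HuCCT1 (1.34 ± 0.37). CHI3L2, a chitinase-like protein, fell in OCUG-1 (-1.82 ± 0.15), and in HuCCT1 it had 0.237, 0.155 and 0.284 CPM at 10 µM and 0, 0 and 0.06 CPM at 1.25 µM. PALMD, a paralemmin relative, differed by -5.88 ± 1.47 and NHLH1 by 7.34 ± 0.81 on the log2 scale. In HuCCT1 CHI3L2, PALMD and NHLH1 all stood under 2 CPM at both doses, so the size of their differences is uncertain.

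**Figure D5:**
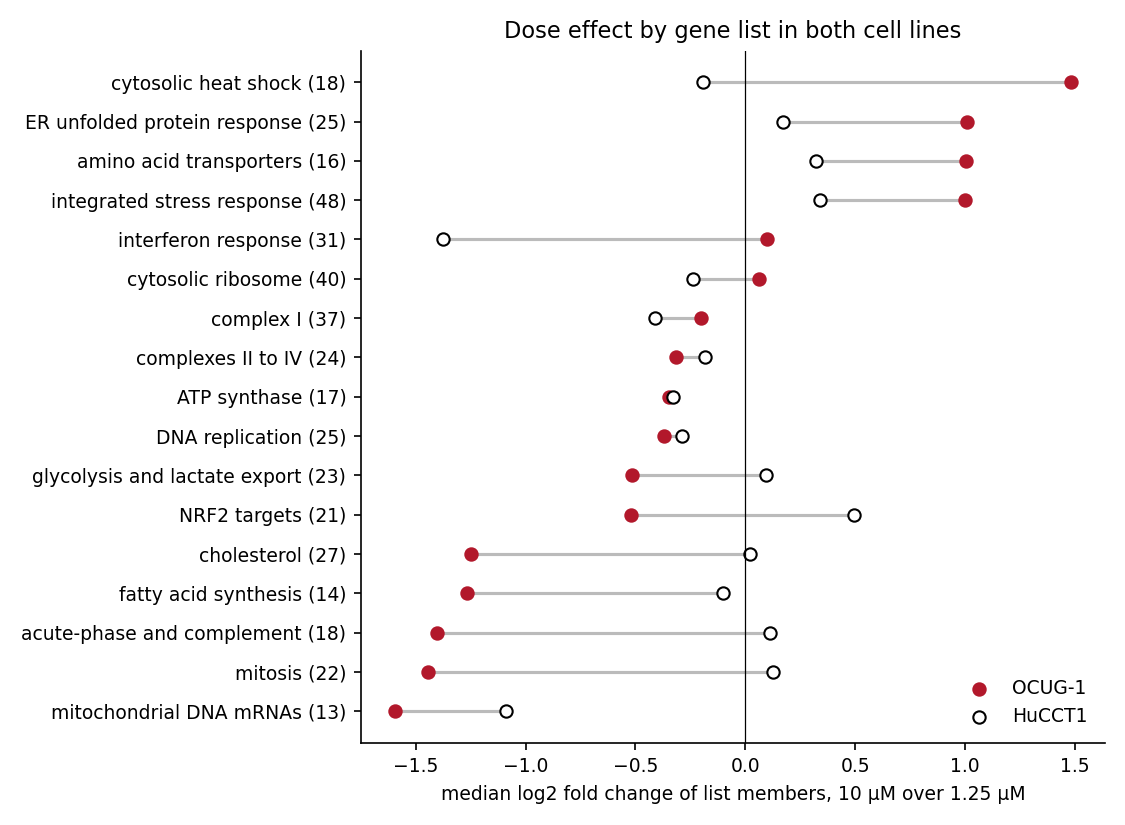
Median log2 fold change (10 µM over 1.25 µM) of the tested members of 17 gene lists, with OCUG-1 as filled red points and HuCCT1 as open points, joined by a line; the number of members is in parentheses. Heat shock, mitosis, cholesterol and fatty acid synthesis lists lie far from 0 in OCUG-1 and near it in HuCCT1, while mitochondrial DNA mRNAs are low in both.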

How the data were processed

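RNA of OCUG-1 and HuCCT1 cells was sequenced as polyadenylated RNA in paired reads, as the protocols in the labels state. The authors deposited raw counts for each gene; the submitters' processing notes name fastp 1.3.2, HISAT2 2.2.2, featureCounts from Subread 2.1.1 and the build GRCh38. Neither annotation release nor strand option was given in these sources, and overlapping or antisense genes may share reads. Of the OCUG-1 libraries 4 had extra sequencing runs, per the design text; which ones is not given there, and its part in the results was not tested.

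Counts were analysed in R 4.3.3 with edgeR 4.0.16: TMM scaling, a minimum count of 10 (filterByExpr) and a robust quasi-likelihood F test with Benjamini-Hochberg adjustment over all tested genes. The 12 OCUG-1 libraries entered 1 fit without a replicate term, and all 24 libraries the fit of the line difference. The SE is the log2 fold change over the square root of its F. CPM values use the TMM-scaled library totals. Depth was 14388855 to 24019011 counts per OCUG-1 library. Simulated counts had 200 genes changed at 10 µM and another 200, changed 2-fold at 1.25 µM, for the test of non-monotonic genes. The dose test recovered 38.1%, 66.8% and 91.3% of 1.5-, 2- and 4-fold changes with 5.77% false calls. The test of non-monotonic genes recovered 57.2% of its 2-fold changes. Far fewer genes changed there than the 12414 called here, so these shares need not hold for these data.

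Genes named are the 10 largest rises and 10 largest falls among called protein-coding genes with a mean of at least 10 CPM in whichever dose had more and no overlap of the doses, the 8 peaks and 8 dips whose smaller change is largest, the 4 largest line differences each way, up to 4 called genes per list with the smallest adjusted p, and a panel; exceptions are stated. The members and the 43 gene lists were chosen with earlier results of these data known. Alternatives were DESeq2 1.42.0, other scalings, no filter on low counts, a replicate term, the compared groups alone, a minimum fold of 1.5 and leaving out each library.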

Additional observations from a re-analysis of the deposited data

Results flagged for a closer look

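The dose effect (10 µM over 1.25 µM, log2) differed between the lines for 40.3% of all tested genes, tested as OCUG-1 minus HuCCT1 in edgeR's fit of 24 libraries. The genes below passed that test. They were ranked on the same OCUG-1 libraries or on the difference itself, so their differences are a description. Among genes with the largest rises in OCUG-1 the difference was 11.61 for GPA33, 9.52 for HSPA6, 7.34 for NHLH1, 6.67 for SLC2A9, 6.07 for CRYAB, 5.92 for AOC3, 5.53 for SPRR2D, 5.26 for MUC13 and 4.97 for THBD. TFPI2, an inhibitor of serine proteases that was at 0 in the 1.25 µM libraries of OCUG-1, had 6.74. The values of GPA33 and TFPI2 rest on almost no reads at 1.25 µM and give no size. In HuCCT1 the others except THBD stood under 2 CPM at both doses, so the size of their differences is uncertain. GPA33 lost its call under the replicate term (11.54, adjusted p = 0.0814) and without OCUG-1 1.25 µM replicates 1, 2 or 3, HuCCT1 10 µM replicates 1 or 3 or HuCCT1 1.25 µM replicate 2 (adjusted p = 0.0517 to 1).

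Among the largest falls the difference was -3.72 for SCART1, -3.49 for PIF1, -3.42 for CARNS1, -3.32 for ADGRF1, -3.27 for CYP4F12, -4.41 for FGA, -3.25 for PRSS2, -2.40 for RASSF10 and -1.56 for CLDN2. The differences furthest below 0 were -5.88 for PALMD, -5.18 for CHI3L2, -4.82 for LRP1B and -4.79 for PLCXD3, a phospholipase domain gene, whose call was lost without OCUG-1 1.25 µM replicate 2, HuCCT1 10 µM replicates 1 or 2, or any one HuCCT1 1.25 µM library (adjusted p = 0.0536 to 0.21). In HuCCT1 PLCXD3 had 0.0339, 0.103 and 0 CPM at 10 µM and 0 CPM in each library at 1.25 µM, so its difference gives no size. CARNS1, CYP4F12, FGA, CHI3L2 and PALMD stood under 2 CPM at both doses in that line, which leaves the size of their differences uncertain.

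Among the non-monotonic genes it was -3.25 for GJA1, -1.72 for IL4I1, -1.58 for COL13A1 and -1.09 for PADI1 in the peaks. In the dips it was 5.61 for HSPA1A, 3.81 for HSPA1B, 1.88 for SLC25A34, 1.18 for KCP, 0.93 for TXNIP, 0.90 for EIF4A1 and 0.76 for IL6R. HuCCT1 averages at 10 µM and 1.25 µM were low for IL4I1 (0.65 and 1.24 CPM) and SLC25A34 (0.644 and 0.885 CPM). The size of the differences of IL4I1 and SLC25A34 is therefore uncertain. In HuCCT1 HSPA1A had 42, 51.6 and 20.3 CPM at 10 µM and 94.3, 98.8 and 64.8 CPM at 1.25 µM, a fall where OCUG-1 rose (-1.18 ± 0.29, adjusted p = 0.00681). LRP1B likewise rose in HuCCT1 (1.34 ± 0.37, adjusted p = 0.00869) and fell in OCUG-1.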

How the results depend on the processing

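Of 203 genes chosen by the dose, list and panel rules, 193 kept their call and direction between the doses under all alternatives run. The others included CYP2E1, LYZ, ETV4, CCL2, CCND1, ATF3, SERPINA1, ITGAM and HMGCS1, the last of which was called under some. None of the 203 with a called change changed direction. Not all of the 203 appear in the text. Genes named after their values were seen or for a motif, such as PMVK, DDIT4, C2 and CALR, were not among them and were not checked this way. The number of genes called between the doses stayed within 1.5 times 12414, at 11376 to 12179 with a library left out and 9655 with a minimum fold of 1.5.

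Numbers of non-monotonic genes moved more, against 414 peaks and 285 dips. Scaling by total count gave 198 and 583, a minimum fold of 1.5 gave 112 and 145, and DESeq2 gave 659 peaks. Leaving out a library gave 130 to 561 peaks and 62 to 281 dips. Scaling by total count also moved the median of all genes to 0.147 (log2) and turned the sign of the median for the hypoxia and receptor lists; the cause was not tested beyond the construction of each alternative.

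Replicate numbers did not pair the samples: same-numbered 10 µM and 1.25 µM libraries had correlations of deviations of 0.01, -0.02 and 0.07, and 3 of 12 libraries correlated best with their own number. With a replicate block 12033 genes were called, 286 peaks and 184 dips. Medians of the ribosome, TCA and interferon lists, all near 0, changed sign without 1 library. With 3 libraries a dose, genes not called cannot be taken as unchanged. In simulated counts, with far fewer changed genes than here, 38.1% of 1.5-fold changes were found.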

Other observations

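The third drug group of OCUG-1, 1.25 µM sorafenib with 1 µM IACS-010759, was in the fit but in no comparison above. Its means (± SD, n = 3 in each group) are given for some of the genes described. HSPA6 averaged 308 ± 107 CPM in the combination, 716 ± 324 CPM at 10 µM and 1.07 ± 0.26 CPM at 1.25 µM. HERPUD1 averaged 356 ± 96.7 CPM in the combination, 528 ± 86.6 CPM at 10 µM and 39.5 ± 3.49 CPM at 1.25 µM. SLC3A2 averaged 1213 ± 147 CPM in the combination, 1223 ± 136 CPM at 10 µM and 193 ± 1.91 CPM at 1.25 µM. In the combination HERPUD1 and SLC3A2 stood nearer to their CPM at 10 µM, and HSPA6 stood between the doses, with no test made.

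KIF20A, FASN and KRT8, all lower at 10 µM, also stood nearer to their CPM at that dose. KIF20A averaged 15.8 ± 0.766 CPM in the combination, 15.3 ± 3.43 CPM at 10 µM and 132 ± 19.5 CPM at 1.25 µM. FASN averaged 206 ± 34.2 CPM in the combination, 178 ± 35.8 CPM at 10 µM and 849 ± 69.5 CPM at 1.25 µM. KRT8 averaged 985 ± 78.3 CPM in the combination, 853 ± 133 CPM at 10 µM and 4374 ± 606 CPM at 1.25 µM. Counts from the mitochondrial genome were 4.71% to 6.48% of the combination libraries, against 9.39% to 13.1% at 1.25 µM.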
